A study of Arabidopsis thaliana with 12 samples.

Results

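UPB1 and 4 other regulatory genes, AT3G49930, AT5G24100, AT1G72200 and AT1G36060, were described across 4 treatments of Arabidopsis thaliana plants. They are 5 of the 13350 genes that alone are paired with a probe set on the array used, and each has 1 probe set. They were chosen by their measured signals, which were lower with L-AOPP+IAA than in the other groups, so that pattern is a description here and carries no test. Tests were made only among the groups without IAA and on other genes.

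UPB1 (UPBEAT1, locus AT2G47270) encodes a bHLH transcription factor of the root tip. It represses peroxidase genes there, and so sets the balance of reactive oxygen species where cells pass from division to elongation. From general knowledge of this genome, since the annotation used for names holds only the locus, AT1G36060 encodes a DREB-type AP2/ERF transcription factor and AT3G49930 a zinc-finger protein of the C2H2 type. AT5G24100 encodes a receptor-like kinase with leucine-rich repeats, and AT1G72200 a RING-H2 protein of the ATL family of ubiquitin ligases. The auxin IAA acts through TIR1/AFB receptors, which mark the Aux/IAA repressors for degradation and free the auxin response factors. Falls of transcripts after auxin are known alongside the better-known rises of early auxin genes.

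Whole Col-0 plants, 7 days old and grown in shaken liquid medium at 21 °C in constant light, gave 12 arrays in 4 groups of 3. Mock plants received the solvent DMSO, and L-AOPP plants received 50 µM L-AOPP for 3 h. This compound inhibits auxin synthesis, and it is also known to inhibit phenylalanine ammonia-lyase. L-AOPP+IAA plants received the same inhibitor and, 1 h later, 1 µM IAA. L-AOPP+IPyA plants received the inhibitor and, 1 h later, indole-3-pyruvic acid, the precursor of IAA, at 100 µM in the sample descriptions and 0.1 µM in the treatment protocol. IAA or IPyA thus acted for 2 h, and every group that received either also carried L-AOPP. No group received IAA or IPyA without the inhibitor. Whether the 3 samples of a group were grown as separate cultures is not stated, so the spread behind each p-value may be technical only.

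Values are the deposited MAS5 signals, a linear brightness per probe set, and a signal is called dim below 47.4, the 30th percentile of the probe sets. Array medians lay between 169 and 185. The level of 1 probe set cannot be set against that of another, so levels were compared between groups and not between genes. In whole plants, fewer cells of a type and less RNA per cell cannot be told apart. Of 8 shoot and 10 root marker genes, 1 and 3 have a probe set with a name. The shoot marker LHCB4.1 (17696 to 24898) and the root marker PYK10 were bright on every array, and no marker was at 0. The sum of the 3 root markers ranged from 17410 to 25565 in mock, 18661 to 24694 with L-AOPP, 19286 to 24808 with L-AOPP+IAA and 19855 to 24395 with L-AOPP+IPyA. Most of each sum was PYK10 (16863 to 22429 in mock), so these ranges describe mainly that gene. The root hair genes EXPA7 and EXPA18 had a summed signal of 3136, 2734, 2693 and 2194.5 in replicate 1 of mock, L-AOPP, L-AOPP+IAA and L-AOPP+IPyA, against 547 to 1539 on the other 8 arrays. Replicate number therefore moved with root hair transcripts, and arrays with the same number were taken as paired.

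**Figure D1:**
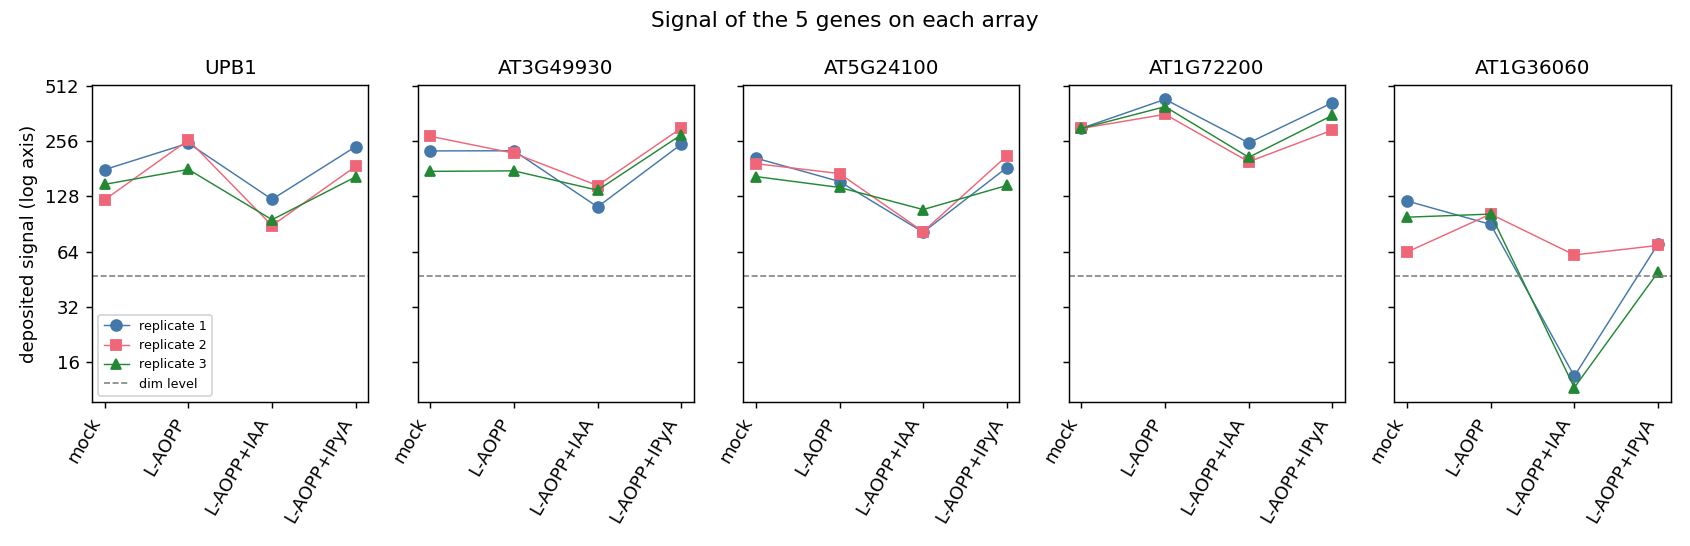
Deposited signal (log axis) of each gene on each of the 12 arrays, by group, with lines joining arrays of the same replicate number and a dashed line at the dim level of 47.4. L-AOPP+IAA is the lowest group for every gene, and only AT1G36060 falls under the dim level, on 2 arrays.

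UPB1 was brightest with L-AOPP and least bright with L-AOPP+IAA. Its signals were 179.4, 122.9 and 149.1 in replicates 1, 2 and 3 of mock and 249.9, 260.2 and 179.9 with L-AOPP. They were 123.5, 88.8 and 95.6 with L-AOPP+IAA and 239.5, 186.9 and 163.8 with L-AOPP+IPyA. All 3 L-AOPP+IAA arrays lay below every L-AOPP and L-AOPP+IPyA array, while the brightest of them, 123.5, lay just above the dimmest mock array, 122.9. The order of the group means was L-AOPP (230.0 ± 43.7, SD, n = 3), L-AOPP+IPyA (197 ± 38.8), mock (150 ± 28.3) and L-AOPP+IAA (103 ± 18.4). L-AOPP and L-AOPP+IPyA overlapped, as did L-AOPP+IPyA and mock, and mock and L-AOPP+IAA.

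The values that led to the choice of UPB1 were log2 differences of L-AOPP+IAA of -1.16 ± 0.21 (SE) from L-AOPP, -0.94 ± 0.21 from L-AOPP+IPyA and -0.55 ± 0.21 from mock. The signal with IAA was thus 2.23-fold below L-AOPP alone and 1.46-fold below mock. Paired by number, the log2 differences from mock were -0.54, -0.47 and -0.64, a narrower span than those from L-AOPP (-1.02, -1.55 and -0.91). UPB1 was above its group mean on 4 of 4 arrays of replicate 1, where the root hair genes were also highest, and on 1 of 4 in each of replicates 2 and 3. The part of root tissue in these values was not tested.

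AT3G49930, the zinc-finger gene, had signals of 226.9, 272.7 and 175.5 in mock and 227.4, 220.4 and 176.6 with L-AOPP. With L-AOPP+IAA they were 112.3, 146.9 and 138.6, below all other arrays, and with L-AOPP+IPyA 246.7, 302.2 and 277.7. Unlike the order seen for UPB1, L-AOPP+IPyA had the highest mean (276 ± 27.8), then mock (225 ± 48.6), L-AOPP (208 ± 27.5) and L-AOPP+IAA (133 ± 18.1). Mock overlapped both its neighbours in that order. The chosen falls were -1.06 ± 0.18 from L-AOPP+IPyA, -0.75 ± 0.18 from mock and -0.65 ± 0.18 from L-AOPP. The pairs against L-AOPP were spread out (-1.02, -0.59 and -0.35). Those of replicates 1 and 2 against L-AOPP+IPyA were -1.14 and -1.04, with replicate 3 close to them.

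AT5G24100, the receptor-like kinase gene, was highest in mock, at 207.3, 193.4 and 164.4. It measured 154.5, 170.7 and 143.4 with L-AOPP and 184, 213.2 and 147 with L-AOPP+IPyA. With L-AOPP+IAA it measured 81.7, 82.3 and 108.6, again below all other arrays. The means ran from mock (188 ± 21.9) through L-AOPP+IPyA (181 ± 33.2) and L-AOPP (156 ± 13.7), which overlapped, to L-AOPP+IAA (90.9 ± 15.4). The differences with IAA were -1.06 ± 0.18 from mock, a 2.08-fold lower signal, -0.99 ± 0.18 from L-AOPP+IPyA and -0.79 ± 0.18 from L-AOPP. Replicate 3 showed the smallest fall in each of these comparisons, -0.60, -0.44 and -0.40.

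AT1G72200, the RING-H2 gene, had nearly equal signals in mock (301.5, 301.1 and 301.1). It stood at 433.7, 359.3 and 395.6 with L-AOPP, 251.1, 198.1 and 209.4 with L-AOPP+IAA and 415.6, 294.7 and 354.9 with L-AOPP+IPyA. The L-AOPP+IAA arrays lay below all others and the L-AOPP arrays above all mock arrays. As for UPB1, the order of the means was L-AOPP (396 ± 37.2), L-AOPP+IPyA (355 ± 60.5), mock (301 ± 0.231) and L-AOPP+IAA (220 ± 27.9), and L-AOPP+IPyA overlapped both neighbours. IAA plants were 1.81-fold below L-AOPP (-0.86 ± 0.15), 1.61-fold below L-AOPP+IPyA (-0.69 ± 0.15) and 1.38-fold below mock (-0.46 ± 0.15). The 3 pairs against L-AOPP, -0.79, -0.86 and -0.92, were the closest together among the 5 genes.

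AT1G36060, the AP2/ERF gene, was the dimmest relative to the filter, and its mean log2 signal lay at percentile 32.7 of all probe sets. The signals were 121, 63.7 and 98.7 in mock, 90.1, 102.6 and 102.6 with L-AOPP and 70.4, 69.2 and 49.4 with L-AOPP+IPyA. With L-AOPP+IAA they were 13.4, 61.4 and 11.6, so replicates 1 and 3 were dim and replicate 2 was not. Replicate 2 with IAA lay above 1 of the L-AOPP+IPyA arrays and just below the lowest mock array. Means were 98.4 ± 7.22 with L-AOPP, 94.5 ± 28.9 in mock, 63.0 ± 11.8 with L-AOPP+IPyA and 28.8 ± 28.2 with L-AOPP+IAA, and mock overlapped L-AOPP and L-AOPP+IPyA. The log2 difference with IAA was -2.21 ± 0.51 from L-AOPP, -2.11 ± 0.51 from mock and -1.55 ± 0.51 from L-AOPP+IPyA. Those sizes rest on the dim arrays. With every signal below 47.4 raised to that level they were -0.93, -0.82 and -0.27, and without L-AOPP+IAA replicate 2 the first was -2.98.

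**Figure D2:**
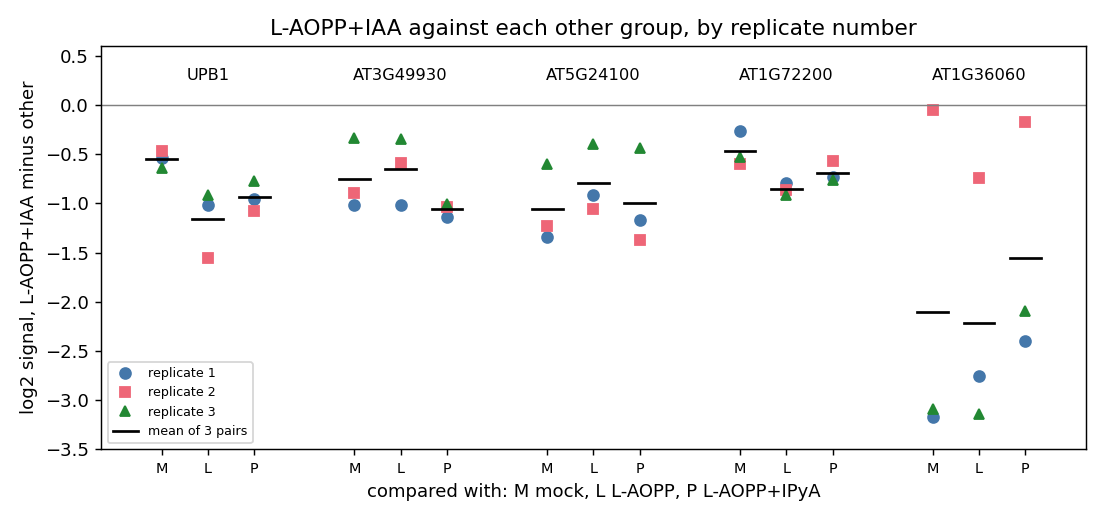
Difference in log2 signal between L-AOPP+IAA and mock (M), L-AOPP (L) or L-AOPP+IPyA (P) for each gene, 1 point per replicate number and a bar at the mean of the 3 pairs. Every point lies below 0, and replicate 2 of AT1G36060 lies near 0 against mock (-0.05) and L-AOPP+IPyA (-0.17).

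All 5 genes were lower with IAA in 3 of 3 pairs against each of the other groups, as their choice required on average. Over the 15922 probe sets that passed the filter on dim signals, 20.1% were lower in 3 of 3 pairs against L-AOPP, 18% against mock and 16.8% against L-AOPP+IPyA. For AT3G49930, AT5G24100 and AT1G72200 all 3 IAA arrays lay below all 9 others, which held for 108 probe sets (0.678%). For UPB1 and AT1G36060 they did not. The 2 groups did not overlap for 5 of 5 genes against L-AOPP (background 4.66% lower), 4 of 5 against mock (3.47%) and 4 of 5 against L-AOPP+IPyA (3.13%). These shares are a description of the choice. Ranked by the smallest of their 3 falls among 8708 filtered probe sets with 1 gene, AT1G36060 was 1st, AT5G24100 15th and AT3G49930 29th. UPB1 was 42nd and AT1G72200 61st, so the genes are not the 5 lowest. The rank of AT1G36060 rests on its dim arrays. With signals raised to the dim level its smallest fall was -0.27, against -0.46 for AT1G72200.

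Treatment accounted for 69.1% of the variance of log2 signal over the 12 arrays in AT1G36060, 79.5% in UPB1, 81.3% in AT3G49930, 84.7% in AT1G72200 and 86.1% in AT5G24100. The genes were chosen for a low group, so a large share was likely beforehand and is a description only. The share over all probe sets was not computed. Replicate number held 13.2% in UPB1 and 10.6% in AT1G72200, against 1.96% in AT5G24100. With the mean of each replicate number removed, the correlation between any 2 of the 5 genes over the 12 arrays lay between 0.57 (AT3G49930 and AT1G36060) and 0.91 (UPB1 and AT1G72200). With the group means removed as well, the correlations lay between -0.51 and 0.34. UPB1 with AT1G72200 was then -0.25. All these points share the same 12 arrays, and the genes were picked for a shared low group.

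What the inhibitor alone did is shown by L-AOPP against mock, where neither group received IAA. The choice still favours genes that are high in each group without IAA. The spread was estimated over all 12 arrays, so the IAA arrays enter every SE, interval and p. For AT1G36060 the SD of log2 signal was 1.33 with L-AOPP+IAA and 0.11 with L-AOPP. UPB1 was higher with L-AOPP by 0.61 ± 0.21 on the log2 scale (1.53-fold, 95% interval 0.14 to 1.08), in 3 of 3 pairs (0.48, 1.08 and 0.27). Its 3 L-AOPP arrays lay above all mock arrays by as little as 179.9 against 179.4. AT1G72200 was higher by 0.39 ± 0.15 (1.31-fold, 0.07 to 0.71), also in 3 of 3 pairs (0.52, 0.25 and 0.39). Over all probe sets, 17.2% were higher and 15% lower in 3 of 3 pairs. Neither difference passed. The limma test gave an unadjusted p of 0.0148 for UPB1 and 0.0199 for AT1G72200, and adjusted values of 1.00 for both. With replicate number as a block the intervals were narrower, 0.28 to 0.94 for UPB1 and 0.16 to 0.62 for AT1G72200. The adjusted p of that fit was 0.0952 and 0.12, so neither passed there.

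The other 3 genes differed less between L-AOPP and mock. AT5G24100 stood 0.27 lower (interval -0.66 to 0.12, lower in 3 of 3 pairs), AT3G49930 0.10 lower (-0.50 to 0.30) and AT1G36060 0.11 higher (-1.02 to 1.23). The direction of the last of these turned without mock replicate 2 (-0.15), and that of AT3G49930 without mock replicate 2 (0.05) or L-AOPP replicate 3 (0.02). Of the 5 genes, 0 were called, where limma called 0 of all 15922 probe sets (0%). An unadjusted p under 0.05 was held by 528, and the fit with the replicate block called 92 (0.578%). Groups did not overlap, with L-AOPP higher, for 2 of 5 genes and for 3.98% of all probe sets. The 2 root hair genes were 0.72 (EXPA7) and 0.67 (EXPA18) higher with L-AOPP on the log2 scale, each in 2 of 3 pairs and not called, and PYK10 0.03 higher. Their part in the UPB1 values was not tested.

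**Figure D3:**
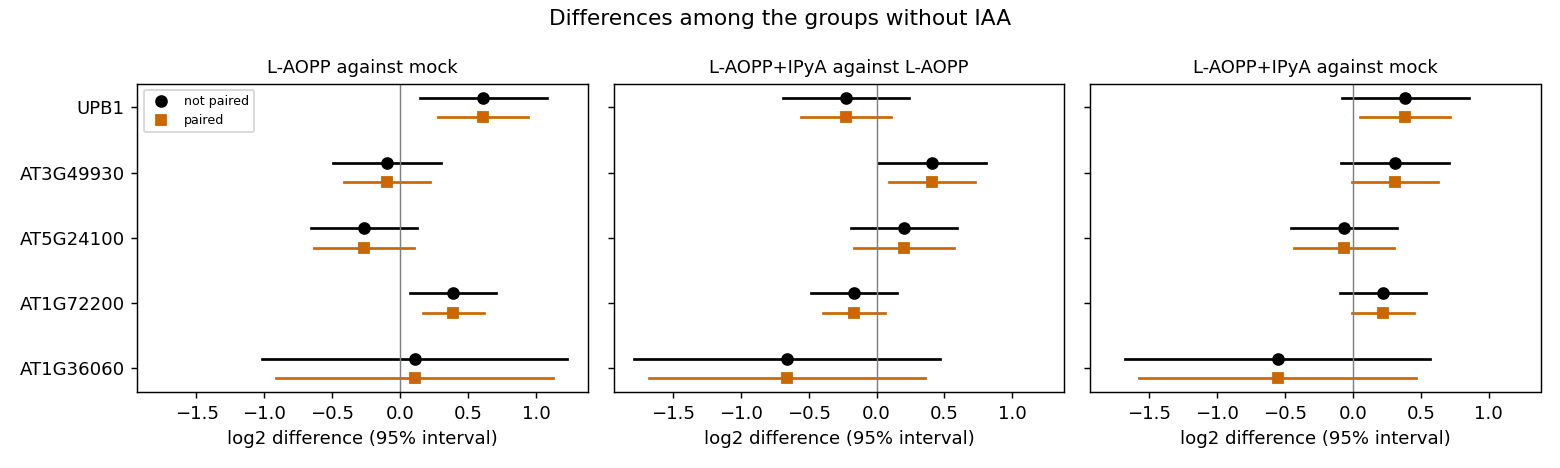
Log2 difference with its 95% interval for each gene in the 3 comparisons between groups that received no IAA. Fits are without (black) and with (orange) the replicate number as a block. The spread behind every interval was estimated over all arrays, including those with L-AOPP+IAA. Without the block, intervals of UPB1 and AT1G72200 lie above 0 for L-AOPP against mock, as does that of AT3G49930 for L-AOPP+IPyA against L-AOPP. With the block, that of UPB1 for L-AOPP+IPyA against mock lies above 0 as well. None of these passed the adjusted threshold.

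What the precursor did is shown by L-AOPP+IPyA against L-AOPP, at a dose that the labels leave unsettled. AT3G49930 was higher with IPyA than with L-AOPP alone by 0.41 ± 0.18 (1.33-fold, interval 0.01 to 0.81) in 3 of 3 pairs (0.12, 0.46 and 0.65), with no overlap of the arrays. Its limma p was 0.0456 unadjusted, 1.00 adjusted and 0.361 adjusted with the block, so it did not pass. UPB1 was 0.22 lower (-0.69 to 0.24), AT1G72200 0.17 lower (-0.49 to 0.15) and AT1G36060 0.66 lower (-1.78 to 0.46), each in 3 of 3 pairs. AT5G24100 was 0.20 higher (-0.19 to 0.59), in 3 of 3 pairs as well. These small differences moved with single arrays: that of UPB1 was -0.39 when replicate 3 of L-AOPP was left out, but -0.10 when replicate 3 of L-AOPP+IPyA was. That of AT1G72200 was -0.29 when L-AOPP+IPyA lost replicate 1, but -0.04 when it lost replicate 2. That of AT5G24100 was 0.08 when L-AOPP+IPyA lost replicate 2, but 0.35 when it lost replicate 3. Over all probe sets, 16.6% were lower and 15.6% higher in 3 of 3 pairs, so a shared direction of the pairs is common here.

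None of the 5 genes was called with IPyA against L-AOPP. Among all probe sets, limma called 0 (0%) and gave 367 an unadjusted p under 0.05, and the fit with the block called 28 (0.176%). AT1G36060 with IPyA lay below all L-AOPP arrays (background 3% lower), and AT3G49930 above them (3.01% higher). Whether IPyA and IAA differed in their effect on these genes was not tested, since the IAA values chose the genes.

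Against mock, the L-AOPP+IPyA plants differed in UPB1 by 0.39 ± 0.21 (interval -0.08 to 0.85), in AT3G49930 by 0.31 ± 0.18 (-0.09 to 0.71) and in AT1G72200 by 0.22 ± 0.15 (-0.09 to 0.54). AT5G24100 differed by -0.06 (-0.45 to 0.33), with a sign that turned without L-AOPP+IPyA replicate 3 (0.08) or mock replicate 1 (0.01), and AT1G36060 by -0.55 (-1.68 to 0.57). UPB1 and AT3G49930 were higher with IPyA in 3 of 3 pairs (background 13.7%), and the arrays of the 2 groups overlapped for all 5 genes, where 2.14% of probe sets lay wholly higher and 1.84% wholly lower. None was called by limma (adjusted p = 1.00 each) or with the block (0.868 to 0.987), where both fits called 0 of 15922 probe sets (0%). Without the block, 150 had an unadjusted p under 0.05. The interval of UPB1 with the block was 0.05 to 0.72.

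Class III peroxidases, secreted enzymes that make and use hydrogen peroxide, are the best-known genes downstream of UPB1. Of 73 such genes, 55 have a named probe set and 43 passed the filter. IAA raised or lowered 0 of the 43 against L-AOPP in the limma fit without a block (63 of 15922 called, 0.396%), with 7 at an unadjusted p under 0.05. With the block, 2 rose and 3 fell, where 590 of all probe sets were called (3.71%), 2.55% higher and 1.16% lower. Their median log2 difference was -0.09, with 30 of 43 below 0, against a median of -0.01 and 53.6% below 0 over all probe sets. Of the 3 root markers, 2 were also below 0 against L-AOPP, with a median of -0.42 and a range of -0.69 to 0.07. Their part in the peroxidase values was not tested. The rises with the block were AT1G14550 (1.78 ± 0.24, SE with the block, adjusted p = 0.000927) and AT5G24070 (0.65 ± 0.14, adjusted p = 0.0236). The falls were AT2G39040 (-1.01 ± 0.19, adjusted p = 0.0102), AT4G30170 (-0.34 ± 0.08, adjusted p = 0.0288) and AT2G37130 (-0.27 ± 0.07, adjusted p = 0.0466). With the block and without replicate 1, 2 or 3 the count was 10, 2 or 1, of which 8, 0 and 0 were falls. The lean below 0 was not seen against the other groups: with IAA the median was 0.06 against mock and 0.06 against L-AOPP+IPyA, with 17 of 43 below 0 in each. Without the block, limma called 0 of the 43 in either comparison (2 and 4 at an unadjusted p under 0.05), where it called 0.446% and 0.377% of all probe sets. With the block, AT2G18980 fell against mock (-0.50, adjusted p = 0.0115) and L-AOPP+IPyA (-0.57, adjusted p = 0.0049). AT4G30170 also fell against both (-0.36 and -0.35, adjusted p = 0.0403 and 0.0399), and AT1G14550 rose against L-AOPP+IPyA (1.26, adjusted p = 0.014), where 1.7% and 1.94% of all probe sets were called.

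AT1G14550 was higher with L-AOPP+IAA than with L-AOPP in 3 of 3 pairs. It measured 195.7, 428.9 and 319.3 in mock, 94.7, 173.7 and 179.5 with L-AOPP, 478.3, 586.9 and 427 with L-AOPP+IAA and 139.3, 185.9 and 338.8 with L-AOPP+IPyA. The IAA arrays lay above all L-AOPP and L-AOPP+IPyA arrays. Without the block its adjusted p against L-AOPP was 0.0734. AT4G30170 had the next smallest p of the family, with 1374 ± 53.8 with IAA and 1745 ± 62.8 with L-AOPP (adjusted p = 0.45 without the block).

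UPB1 is known to bind the peroxidase genes AT4G11290, AT4G16270 and AT5G17820. Whether their signals here depended on UPB1 was not tested. AT4G11290 was lowest with L-AOPP, and the other groups overlapped. It measured 404, 462.7 and 422 in mock, 227.9, 359.6 and 348.8 with L-AOPP, 413.2, 431.1 and 438.1 with L-AOPP+IAA and 480.9, 426.8 and 416.8 with L-AOPP+IPyA. The L-AOPP arrays lay below all 9 others, and the means of the other groups were 430 ± 30.1 in mock, 427 ± 12.8 with L-AOPP+IAA and 442 ± 34.5 with L-AOPP+IPyA. The differences were -0.49 ± 0.16 for L-AOPP against mock, 0.48 ± 0.16 for L-AOPP+IAA against L-AOPP and 0.53 ± 0.16 for L-AOPP+IPyA against L-AOPP, which all share the L-AOPP arrays. None passed (adjusted p with the block 0.14, 0.0816 and 0.213; without it 1.00, 0.466 and 1.00).

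AT5G17820 ran with the replicate number instead. Its replicate 1 measured 5814.8, 4730.7, 4172.9 and 4479.5 in mock, L-AOPP, L-AOPP+IAA and L-AOPP+IPyA, and the other 8 arrays lay between 2401 and 3658. The root hair genes were also highest in replicate 1, and their part in these values was not tested. With IAA it was 0.34 lower than with L-AOPP (SE 0.11 with the block, adjusted p = 0.133), in 3 of 3 pairs. AT4G16270 had a mean signal of 28.8 over the 12 arrays, was dim and was not tested.

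**Figure D4:**
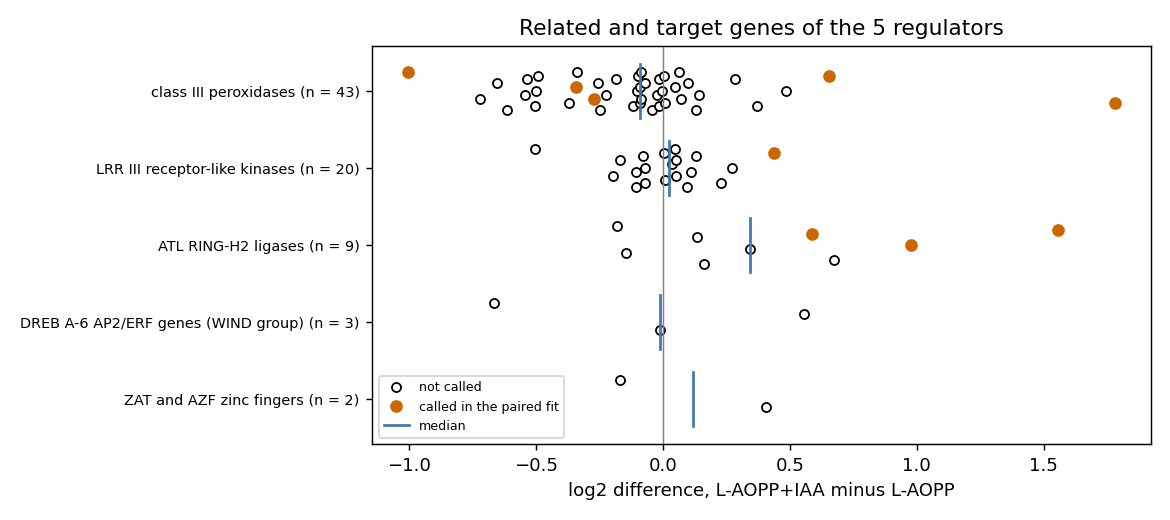
Log2 difference between L-AOPP+IAA and L-AOPP for each tested gene of 5 lists (vertical spread within a list only separates points), with filled points for genes called with the replicate number as a block and a line at the median of each list. Class III peroxidases centre near 0 (median -0.09) with AT1G14550 at 1.78, and the ATL genes have a median of 0.34.

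Relatives of the other 4 genes were examined in the same way. Of 23 other ATL genes, 12 have a named probe set and 9 were tested. With IAA against L-AOPP, 0 were called by limma without the block (2 at an unadjusted p under 0.05), and with it 3 rose and 0 fell, where 3.71% of all probe sets were called and 2.55% were higher. Their median was 0.34, with 2 of 9 below 0. With IAA against mock the median was 0.10, with 4 of 9 below 0, and against L-AOPP+IPyA -0.01, with 5 of 9 below 0. In those comparisons limma called 0 in either fit (1 and 1 at an unadjusted p under 0.05 without the block, 1 and 2 with it). The 3 that rose were ATL5 (0.98, adjusted p = 0.00514), AT4G15975 (1.56, adjusted p = 0.0233) and AT1G20823 (0.59, adjusted p = 0.0236). ATL5 went from 82.5 ± 17.9 to 164 ± 45.6, and AT4G15975 from a dim 33.3 ± 17.2 to 89.9 ± 27.7. With the block, the count was 1 without replicate 1 and 0 without replicate 2 or 3.

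Among 40 leucine-rich repeat receptor-like kinases of subfamily III, 24 have a named probe set and 20 were tested. With the block 1 rose, AT1G25320 (0.44, from 429 ± 27.1 to 585 ± 77.6, adjusted p = 0.0253), and 0 fell, where 3.71% of all probe sets were called. Without the block limma called 0, with 1 at an unadjusted p under 0.05. Their median was 0.02 with 8 of 20 below 0. AT4G34220 had the second smallest p of the list, at 830 ± 151 with L-AOPP and 997 ± 122 with IAA, and did not pass (adjusted p = 0.127 with the block). With the block, 1 rose and 1 fell without replicate 1, and 0 were called without replicate 2, without replicate 3, or with no intensity trend.

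Few relatives of the 2 remaining transcription factor genes could be read. Of 9 other DREB-type genes of the A-6 subgroup of AT1G36060, which holds the WIND genes of wound response, 5 have a named probe set and 3 were tested, of which limma called 0 in either fit (0 at an unadjusted p under 0.05 without the block and 2 with it). AT2G22200 was the nearest to AT1G36060 in direction, at 103 ± 20.8 with L-AOPP and 64.4 ± 8.75 with IAA (-0.67, in 3 of 3 pairs; adjusted p = 0.159 with the block). AT1G64380 was 0.55 higher and AT4G39780 differed by -0.01, and AT4G28140 and AT5G65130 were dim (means 35.6 and 28.5). Of 11 zinc-finger genes of the ZAT and AZF groups, 3 have a named probe set and 2 were tested, with 0 called by limma (0 at an unadjusted p under 0.05 without the block and 1 with it). AT2G28200 was 0.17 lower and STZ 0.41 higher with IAA, with STZ spread widely within each group (2859 ± 2248 with L-AOPP, 4035 ± 3151 with IAA). Of 19 aquaporin genes 0 have a named probe set, so they were not analysed here.

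With L-AOPP against mock, the only gene of these lists called was the peroxidase AT2G37130, which rose by 0.37 ± 0.07 (adjusted p = 0.0344 with the block), and 0 were called without the block. In both comparisons of IPyA without IAA, 0 were called by limma in either fit. Among the 43 peroxidases, 3 had an unadjusted p under 0.05 for L-AOPP against mock without the block and 17 with it. The shares of all probe sets were 3.32% and 13.4%. For IPyA against L-AOPP the counts were 2 and 13, against 2.30% and 9.82% of all probe sets. For IPyA against mock they were 0 and 2, against 0.942% and 5.54%. The median difference of the peroxidases was 0.11 for L-AOPP against mock, -0.14 for IPyA against L-AOPP and 0.01 for IPyA against mock, against 0.01, 0.00 and 0.00 over all probe sets. The medians of the ATL genes were -0.24, 0.31 and 0.01, and those of the receptor-like kinases 0.00, 0.08 and 0.03.

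The genes most like each of the 5 were found by the Pearson correlation over the 12 arrays, with the mean of each replicate number removed, among 8703 other tested probe sets with 1 gene. The correlation takes no account of size, and group means were not removed. The L-AOPP+IAA arrays that led to the choice of the 5 genes are among the 12, and only the highest correlations were kept. High values with genes low with IAA were thus likely beforehand and are a description only. UPB1 was followed most closely by AT1G26850 (0.97), whose mean signals spanned only 4089 with IAA to 4684 with L-AOPP. Next came AT2G43880 (0.95), at 133 in mock, 186 with L-AOPP, 68.2 with IAA and 155 with IPyA, and AT2G43760 (0.93). AT3G49930 was closest to AT5G43040 (0.93), which stood at 200.3, 200.1, 124 and 246 in the same order, AT4G16830 (0.92) and AT3G21680 (0.91).

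For AT5G24100 the closest were AT3G20015 (0.95), at 576, 502, 369 and 549 in mock, L-AOPP, L-AOPP+IAA and L-AOPP+IPyA, AT5G55530 (0.95) and the MADS-box gene AGL87 (0.92). AT1G72200 was followed by AT3G16760 (0.96), AT1G76400 (0.95) and AT1G49470 (0.95), the last at 318, 380, 240 and 362. AT1G36060 was followed by AT5G06570 (0.94), AT3G03020 (0.91) and AT1G69080 (0.91). AT5G06570 was itself dim with IAA (34.3), while AT3G03020 measured 120, 110, 65.4 and 104 and AT1G69080 109, 107, 47.7 and 89.1.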

How the data were processed

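Biotin-labelled cRNA of 12 samples was hybridised to 1-colour arrays, per the labels. The deposited values are linear intensities. The authors used MAS5, per the submitters' processing notes, in a version and with a scaling target not stated there. A mean trimmed by 2% at both ends came to 500.0 on every array. Names come from the platform annotation. Of 22746 probe sets that are not controls, 13513 have 1 gene, 503 several and 8730 are unlisted. Loci come from the RefSeq gene table (13436 matched).

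Signals were floored at 0.05, put on the log2 scale and tested over all 12 arrays by limma 3.58.1 (R 4.3.3) with an intensity trend. Probe sets with a mean log2 signal at or below the 30th percentile were left out (6824), which left 15922. A probe set was called at a two-sided Benjamini-Hochberg adjusted p under 0.05, over all probe sets tested. Signals are means ± SD of 3 arrays, and log2 differences carry the SE or 95% interval of the fit. The number of arrays limits the precision. The fit was tested on simulated data that held no effect of replicate number, so that test cannot judge the calls made with the block.

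Titles number the replicates 1 to 3. Deviations from group means correlated between 0.50 and 0.69 for the 18 pairs of arrays with the same number and between -0.58 and 0.12 for the 36 with different numbers, so the numbers were taken as pairs, from the data. The fit without pairing is the reference, and SEs and intervals come from it unless the block is named. SEs with the block were smaller, for UPB1 0.15 against 0.21, so SEs of the 2 fits are not alike.

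The members, gene lists and tests were chosen with earlier results of these data known. Genes named are the 5 members, the 3 most correlated with each, all listed genes called, the 2 with the smallest p of a list without a call, and relatives fixed by name. Genes called only with the block were named after their values were seen. Where a gene has several probe sets the brightest was used. Alternatives were the block, other scaling, filters, pseudocount, no trend, fewer groups and leaving out arrays.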

Additional observations from a re-analysis of the deposited data

How the results depend on the processing

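The 15 tested differences of the 5 genes were recomputed under 291 combinations of gene, comparison and alternative. None became called. They kept their direction in 284, and the 7 reversals were of values near 0. For L-AOPP against mock these were AT3G49930 (0.052 without mock replicate 2, 0.02 when L-AOPP replicate 3 was left out, 0.0061 with the replicate block without replicate 2) and AT1G36060 (-0.15 without mock replicate 2, -0.18 with the block without replicate 2). For L-AOPP+IPyA against mock it was AT5G24100 (0.01 without mock replicate 1, 0.079 without L-AOPP+IPyA replicate 3). Over the arrays left out, AT3G49930 ranged from -0.27 to 0.05, AT1G36060 from -0.15 to 0.31 and AT5G24100 from -0.19 to 0.08. The 15 described falls with IAA kept their sign in all 291 combinations. The genes were chosen by these falls on the same arrays, so a kept sign was likely beforehand and is no support. Sizes did move: that of AT1G36060 against L-AOPP+IPyA went from -1.55 to -0.27 with signals raised to the dim level.

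The replicate block raised the number of probe sets called from 0 to 92 for L-AOPP against mock, from 0 to 28 for L-AOPP+IPyA against L-AOPP and from 63 to 590 for L-AOPP+IAA against L-AOPP, and left it at 0 for L-AOPP+IPyA against mock. With the block and without replicates 1, 2 and 3 these counts were 329, 0 and 6, then 75, 0 and 3, then 627, 119 and 193. Alternatives chosen after seeing the data were the block with no trend (2, 0 and 353), the block with quantile normalization (105, 21 and 603) and signals raised to the dim level. Without the block, the stricter filter at the 50th percentile called 35 for L-AOPP+IAA against L-AOPP, and leaving out arrays gave 23 to 37. Of the 5 genes, that filter dropped AT1G36060, AT5G24100 and UPB1, so they have no value there. A fit of only these 2 groups called 1 of the peroxidases. The block changed no call of the 5 genes. The cause of these shifts was not tested. Dim signal limits AT1G36060 most.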
